A study of Mus musculus with 3 samples.

Results

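Atf3, Jun, Sox11, Klf6, Smad1 and Stat3, transcription factors studied for their part in the regrowth of injured sensory neurons, were followed through the cell classes of the mouse dorsal root ganglion (DRG) after nerve injury. The members were chosen by symbol, and all 6 were found among the 31053 genes of the deposited count tables. The study profiled DRG cells from male C57BL/6J mice of postnatal week 13 by droplet single-cell RNA sequencing. The 3 libraries came from naïve mice and from mice taken 7 or 14 days after a double-sided spared nerve injury (SNI), a model in which some branches of the sciatic nerve are cut and another is left intact. Each library pooled the lumbar L3 and L4 ganglia of 2 mice (8 ganglia), so that the mice within a library could not be separated and each condition had 1 library. No test between conditions was therefore possible, and no p-value is given. The intervals below cover counting error only, and neither differences between mice nor differences between library preparations. Those of levels and ratios also leave out differences between cells, so levels whose intervals do not overlap may still rest on few cells.

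When the peripheral axon of a sensory neuron is cut, signals carried back to the cell body switch on a programme of transcription that precedes regrowth. Stress signals through the kinases DLK and JNK act on c-Jun and ATF3, cytokine signals through the receptor gp130 act on STAT3, and BMP signals act on SMAD1. SOX11 and KLF6 belong to families of developmental regulators that have been linked with axon growth, and c-Jun is also known as a regulator of the repair state of Schwann cells, the glia that ensheathe axons. ATF3 is widely used as a marker of axotomised sensory neurons.

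The promoters of Atf3, Jun, Sox11 and Klf6 are shown because these were the members that were higher in neurons in both injured libraries. A further reason was that each held a stretch of 8 bases matching a motif of the cyclic-AMP response element (CRE) type. CREs are the DNA elements of the ATF and CREB family. In the motif used for Jun, Sox11 and Klf6 a base is left free. Each line gives the 150 bases before the RefSeq start of the gene, 5′ to 3′ on the gene's strand (mouse GRCm38.p6), at chr1:191183334-191183483 (minus strand), chr4:95052223-95052372 (minus strand), chr12:27342719-27342868 (minus strand) and chr13:5861339-5861488 (plus strand). Capitals mark TTACGTCA or TGACNTCA on either strand.
Atf3: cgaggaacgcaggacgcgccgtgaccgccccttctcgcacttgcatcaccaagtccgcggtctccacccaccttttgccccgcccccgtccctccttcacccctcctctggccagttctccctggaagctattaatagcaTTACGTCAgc
Jun: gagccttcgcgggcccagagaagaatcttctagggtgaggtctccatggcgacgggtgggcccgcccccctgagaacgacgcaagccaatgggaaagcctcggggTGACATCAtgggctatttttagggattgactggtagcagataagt
Sox11: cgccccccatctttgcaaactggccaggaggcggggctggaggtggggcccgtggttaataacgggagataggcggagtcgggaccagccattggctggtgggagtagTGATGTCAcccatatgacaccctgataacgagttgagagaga
Klf6: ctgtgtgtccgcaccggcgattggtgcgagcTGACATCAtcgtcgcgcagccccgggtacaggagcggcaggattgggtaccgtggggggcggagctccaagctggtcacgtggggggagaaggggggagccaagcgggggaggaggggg
The match TTACGTCA began 10 bases before the Atf3 start. The match to TGACNTCA began 45 bases before the start of Jun, 42 bases before that of Sox11, where it lies on the opposite strand, and 119 bases before that of Klf6. Neither motif was present within 250 bases before and 50 bases after the starts of Smad1 and Stat3. Over all 32851 RefSeq promoters of the same length, 8.83% held TGACNTCA and 0.499% held TTACGTCA. The base left free in TGACNTCA was set after the members' promoters had been seen. The matches, and their absence from Smad1 and Stat3, are therefore descriptions of these sequences, not sites, and cannot be weighed against the shares over all promoters. The AP-1 motif TGANTCA (7.81% of all promoters) and the STAT motif TTCNNNGAA (8.30%) were in 0 of the 6 windows, and the GC box GGGCGG (35.7%) was in 6 of 6.

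In the GENCODE annotation of GRCm38, Jun (chr4:95049034-95052222) and Sox11 (chr12:27334264-27342574) each have 1 exon, Klf6 lies at chr13:5861482-5870394, Atf3 at chr1:191170296-191218039, Smad1 at chr8:79338395-79399518 and Stat3 at chr11:100885098-100939540. The Atf3 start used for the promoter above lies inside the GENCODE span of the gene, which has 3 annotated transcripts. The sequence before the 5′ end of that span was not examined. An annotated gene on the opposite strand overlaps Atf3 (Gm24748), Jun (the antisense gene Junos) and Stat3 (Stat5a). The strand setting of the counting was not given in the sources used here, so a contribution from these genes could not be told apart.

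The libraries held 3748, 3281 and 4908 cell barcodes (naïve, day 7 and day 14, the order used throughout), of which 3152, 2682 and 3828 had 500 or more genes and no more than 20% of their UMIs (unique molecular identifiers, each standing for 1 captured RNA molecule) from mitochondrial genes, with medians of 3072, 4010.5 and 4199 UMIs. Cells were placed in classes by markers alone, and names such as neuron or satellite glia below mean cells like that type. There were 125, 158 and 144 neurons, 703, 454 and 596 satellite glia, and 1358, 1146 and 1636 myelinating Schwann cells. All 6 neuronal markers were present in the neurons of every library. The neurons of the day 7 library stood apart in depth, with a median of 3804.5 UMIs against 65824 and 80235 in the other libraries. Of these, 101 of 158 were under 10000 UMIs and carried 4446 counts per 1000000 UMIs (CPM) of summed myelinating Schwann markers, against 215 CPM in the 57 deeper day 7 neurons. The ratios of the members over naïve in neurons are therefore also given for the 107, 57 and 118 neurons with at least 10000 UMIs. Pairs of libraries shared 1 to 6 cell barcodes.

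The level of a gene in a class is its summed UMIs divided by all UMIs of that class, given as CPM. A gene was called higher or lower where the ratio of both sums was at least 2-fold and its exact 95% interval lay clear of 1, among genes with at least 20 UMIs over both sums. In neurons, Atf3, Jun, Sox11 and Klf6 were called higher both 7 and 14 days after SNI, and Smad1 and Stat3 were higher by less than 2-fold. That is 4 of 6 members at each time. Of all genes tested, 3.58% were called higher at day 7 (450 of 12574) and 5.88% at day 14 (780 of 13263), while 0 of 6 members were called lower, as 1.50% and 1.32% of genes were. The median log2 ratio of the members was 1.27 at day 7 and 1.31 at day 14, against 0.03 and 0.09 over all genes tested. Both times are compared with the same naïve library.

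**Figure D1:**
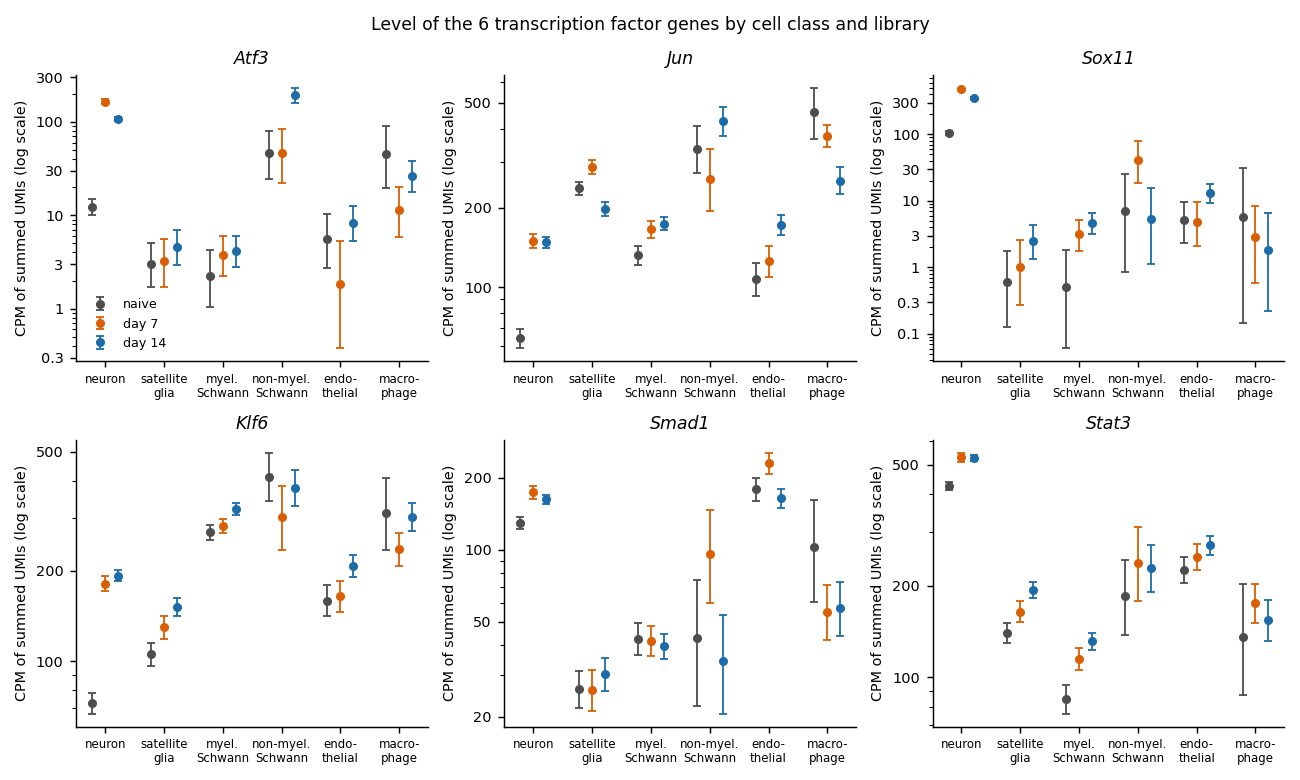
Each panel shows 1 member. The vertical log axis gives the level in CPM with its Poisson 95% interval, the horizontal axis the cell class, and colours the 3 libraries. In neurons Atf3 went from 12.2 CPM in the naïve library to 164 and 106 CPM after injury, while Stat3 stayed between 426 and 530 CPM.

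Atf3 encodes a bZIP factor that is switched on by stress. Its level in neurons was 12.2 CPM (95% interval 9.99 to 14.8, 104 UMIs) in the naïve library, 164 CPM (154 to 174, 1068 UMIs) at day 7 and 106 CPM (101 to 112, 1348 UMIs) at day 14. The ratio over naïve was 13.4 (11.0 to 16.6) at day 7 and 8.71 (7.13 to 10.7) at day 14, and the 3 intervals of the levels did not overlap. Atf3 stood at the 99.8th and 99.6th percentile of all genes tested. In neurons with at least 10000 UMIs the ratios were 13.5 and 8.77. The naïve sum rested on few cells, since 27 of 125 neurons had an Atf3 UMI and 1 cell held 42 of the 104 UMIs (40.4%).

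The share of neurons with an Atf3 UMI was 21.6% (exact 95% interval 14.7 to 29.8), 33.5% (26.2 to 41.5) and 45.1% (36.8 to 53.6). In glia as a whole the share was 1.37%, 2.01% and 3.17% at median depths of 3056, 4118 and 4166 UMIs per cell. These glia include non-myelinating Schwann cells, where Atf3 was at 46.3, 45.9 and 193 CPM. The glial share is therefore not a measure of free RNA alone. Because depth differed, each cell with at least 2300 UMIs was also thinned to 2300 UMIs, and cells below that depth were left out of the thinned shares. The median depth was 1804 UMIs in the day 7 neurons under 10000 UMIs. It was 1910 UMIs in naïve non-myelinating Schwann cells, so most cells of both groups were left out. The thinned share in neurons was 1.92%, 18.9% and 15.5%, against 1.02%, 0.942% and 1.62% in glia. After thinning, the naïve neurons were thus close to the glia, and the neurons of both injured libraries were above them.

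Jun encodes c-Jun, the AP-1 subunit downstream of JNK. In neurons it was at 64.1 CPM (58.8 to 69.7) in the naïve library, 150 CPM (141 to 160) at day 7 and 148 CPM (141 to 155) at day 14. The ratio was 2.34 (2.11 to 2.61) and 2.31 (2.10 to 2.55), and the intervals of the injured libraries overlapped with each other and not with that of the naïve library. In neurons with at least 10000 UMIs the ratios were 2.38 and 2.30.

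Sox11 encodes an HMG-box factor active in developing neurons. Its level in neurons was 105 CPM (98.1 to 112) in the naïve library, 489 CPM (472 to 506) at day 7 and 354 CPM (343 to 364) at day 14, with no overlap between the 3 intervals. The ratio over naïve was 4.66 (4.33 to 5.03) and 3.37 (3.14 to 3.62), which put Sox11 at the 99.2th and 97.9th percentile of all genes. For the neurons with at least 10000 UMIs it was 4.67 and 3.41.

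Klf6 encodes a zinc-finger factor. In neurons it was at 72.6 CPM (67.0 to 78.5), 181 CPM (171 to 192) and 193 CPM (185 to 201), so that only the naïve interval lay apart. The ratio was 2.50 (2.27 to 2.76) at day 7 and 2.66 (2.43 to 2.91) at day 14, and 2.57 and 2.70 in the deeper neurons. When each neuron counted equally instead of in proportion to its UMIs, the day 7 ratio of Klf6 was 1.97 and that of Jun 1.90, both under 2-fold. With that weighting Atf3 and Sox11 still passed.

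Smad1, which carries BMP signals to the nucleus, was at 130 CPM (122 to 138), 174 CPM (164 to 184) and 162 CPM (155 to 169) in neurons. Stat3, which carries signals from gp130, was at 426 CPM (413 to 441), 530 CPM (512 to 548) and 527 CPM (514 to 539). The ratios over naïve were 1.34 and 1.25 for Smad1, and 1.24 and 1.23 for Stat3. In neurons with at least 10000 UMIs they were 1.34 and 1.25 for Smad1, and 1.25 and 1.24 for Stat3. For both genes the intervals of the ratio lay above 1, yet neither reached 2-fold. Phosphorylation, through which SMAD1 and STAT3 are mainly controlled, is not measured by RNA counts.

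Between day 7 and day 14, 0 of 6 members were called in either direction in neurons, with 2.34% of genes called higher and 0.948% lower. Atf3 was lower at day 14 (ratio 0.649, 0.599 to 0.704), as was Sox11 (0.723, 0.690 to 0.756), both by less than 2-fold, and in the deeper neurons the ratios were 0.647 and 0.730. Jun (0.986), Klf6 (1.06), Smad1 (0.934) and Stat3 (0.993) had intervals that included 1.

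**Figure D2:**
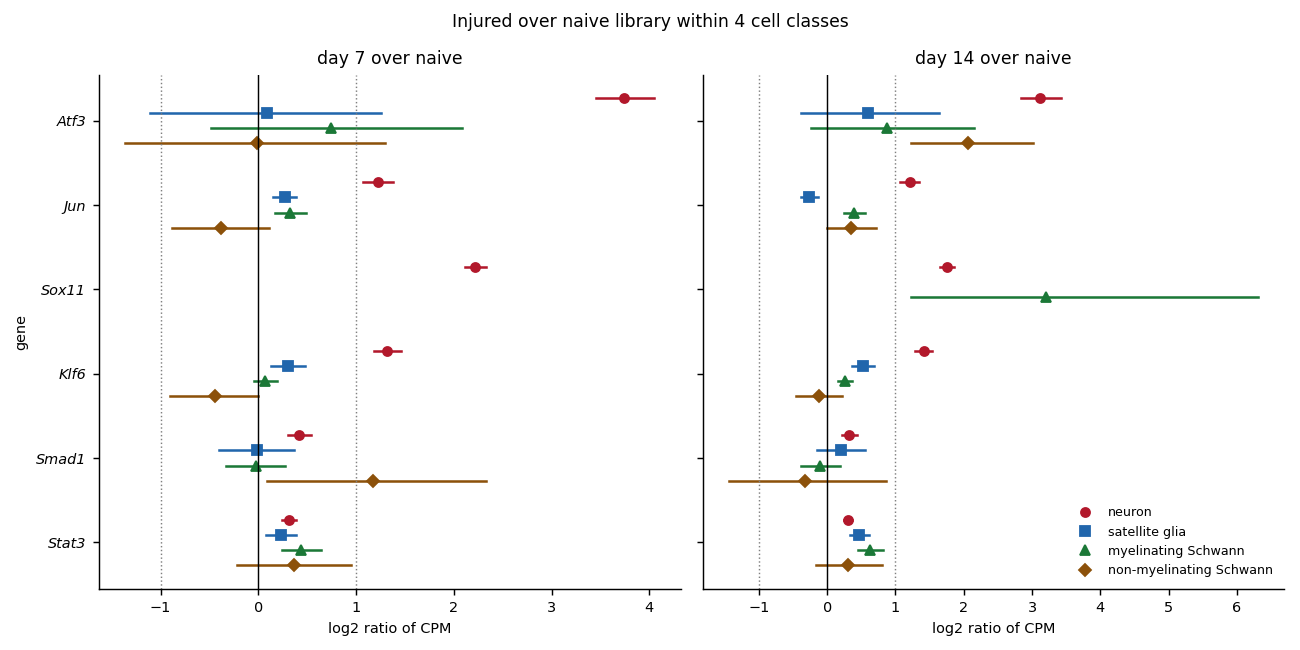
The horizontal axis gives the log2 ratio of the day 7 or day 14 level over the naïve level with its exact 95% interval. The vertical axis lists the members, each in 4 cell classes. The dotted lines mark 2-fold, and genes with fewer than 20 UMIs over both sums are left out. In neurons the day 7 ratios range from 1.24 for Stat3 to 13.4 for Atf3.

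Per cell, the members differed in how their levels were spread. Among the neurons with at least 10000 UMIs, the median Atf3 level was 0, 5.08 and 5.12 CPM, with maxima of 546, 1532 and 1035 CPM. Atf3 was at 100 CPM or more in 2 of 107, 12 of 57 and 27 of 118 cells (1.87%, 21.1% and 22.9%). The higher Atf3 sum after injury was therefore carried by a minority of the neurons. Sox11 had medians of 59.8, 97.8 and 92.3 CPM and maxima of 1444, 3172 and 2813 CPM, and 28.0%, 49.1% and 47.5% of cells were at 100 CPM or more. For Jun the medians were 34.1, 90.4 and 128 CPM, and for Klf6 they were 52.9, 104 and 167 CPM. The medians of both were higher in the injured libraries. Stat3 was at 100 CPM or more in 99.1%, 100% and 99.2% of these cells, with medians of 403, 512 and 533 CPM. Smad1 had medians of 129, 147 and 136 CPM.

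**Figure D3:**
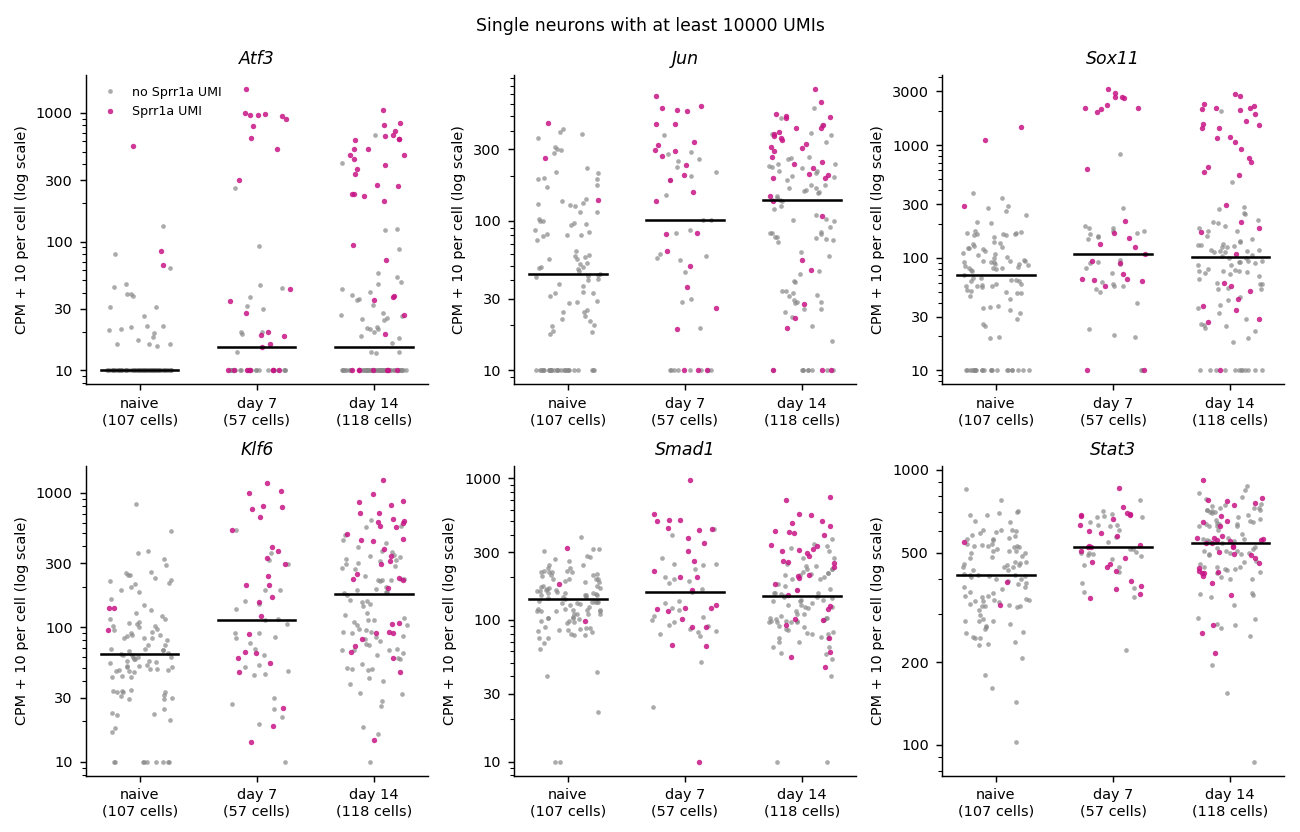
Each point is 1 neuron with at least 10000 UMIs (107, 57 and 118 cells). The vertical log axis gives the cell's level of the member in CPM plus 10, colours mark cells with a Sprr1a UMI, and the horizontal line is the median. Atf3 medians lie at or near the bottom of the axis in all 3 libraries while single cells reach 1532 CPM, and Stat3 forms 1 band.

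All 6 members were detected together in 15 of 107 (14.0%), 26 of 57 (45.6%) and 50 of 118 (42.4%) of these neurons. The neurons were divided by whether they had an Atf3 UMI, with a median depth of 94510 and 55695, 105732 and 70690, and 105906 and 82440 UMIs with and without it. In the naïve library Sox11 was at 164 and 75.9 CPM and Klf6 at 70.0 and 71.8 CPM. Of the 26 naïve neurons with an Atf3 UMI, 3 held 250 of the 443 Sox11 UMIs, so the naïve Sox11 difference rested largely on these cells. They are the naïve neurons with a Sprr1a UMI described below. At day 7 Sox11 was at 779 CPM in neurons with an Atf3 UMI and at 105 CPM in those without, and at day 14 it was at 582 and 68.2 CPM. Klf6 was at 264 and 76.7 CPM at day 7 and at 249 and 121 CPM at day 14. Stat3 was nearly alike on both sides, at 543 and 519 CPM at day 7 and at 540 and 512 CPM at day 14.

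Sprr1a, a target gene that is barely expressed in intact sensory neurons, was used as a readout of injury that is not a member. A Sprr1a UMI was present in 3 of 125, 95 of 158 and 42 of 144 neurons (2.40%, 60.1% and 29.2%). In glia, as background, it was 0 of 2266 naïve cells (a count of 0 allows up to 0.132%) and 3.04% and 2.10% of the injured ones. Among cells with at least 2300 UMIs, thinned to that depth, it was 0.765%, 32.5% and 17.9% in neurons and 0, 1.16% and 0.867% in glia. At day 7, neurons with a Sprr1a UMI had 300 CPM of Atf3 and those without had 19.3 CPM, a ratio of 15.5 (12.0 to 20.4). At day 14 the levels were 282 and 21.6 CPM, a ratio of 13.1 (11.2 to 15.4). Sox11 was at 834 and 122 CPM at day 7 (ratio 6.81, 6.12 to 7.60) and at 865 and 107 CPM at day 14 (ratio 8.10, 7.53 to 8.73).

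Jun and Klf6 were split in the same direction. At day 7 the ratio was 2.19 for Jun and 3.28 for Klf6, and at day 14 it was 2.27 and 2.41. Smad1 came to 1.68 and 1.99, and Stat3 to 1.02 (0.955 to 1.09) and 0.951, with intervals that included 1. So 4 of 6 members were called higher in the Sprr1a-positive neurons of each injured library, where 3.44% of genes were called higher at day 7 and 4.18% at day 14. The median depth was 3334 UMIs with and 7056 UMIs without Sprr1a at day 7, and 92696 and 70739 UMIs at day 14. Within the day 7 neurons with at least 10000 UMIs (27 with and 30 without) the ratios were 16.9 for Atf3, 2.24 for Jun, 6.92 for Sox11, 3.43 for Klf6, 1.68 for Smad1 and 1.02 for Stat3.

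The split was repeated among neurons with at least 10000 UMIs at 100 CPM of Sprr1a, a cutoff chosen after seeing the data. It left 11 neurons above and 46 below at day 7, and 24 and 94 at day 14, and of those below 16 and 13 had a Sprr1a UMI. Atf3 was then at 898 and 43.0 CPM at day 7 and at 431 and 22.7 CPM at day 14, ratios of 20.9 and 19.0. The ratios were 4.33 and 3.39 for Jun, 13.8 and 13.1 for Sox11, and 6.96 and 3.50 for Klf6. Smad1, which had stayed under 2-fold, came to 2.98 (2.62 to 3.38) and 2.64 (2.41 to 2.89). Stat3 was at 1.03 (0.934 to 1.13) and 0.979 (0.922 to 1.04), so that it alone of the members did not differ by 2-fold at this cutoff.

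**Figure D4:**
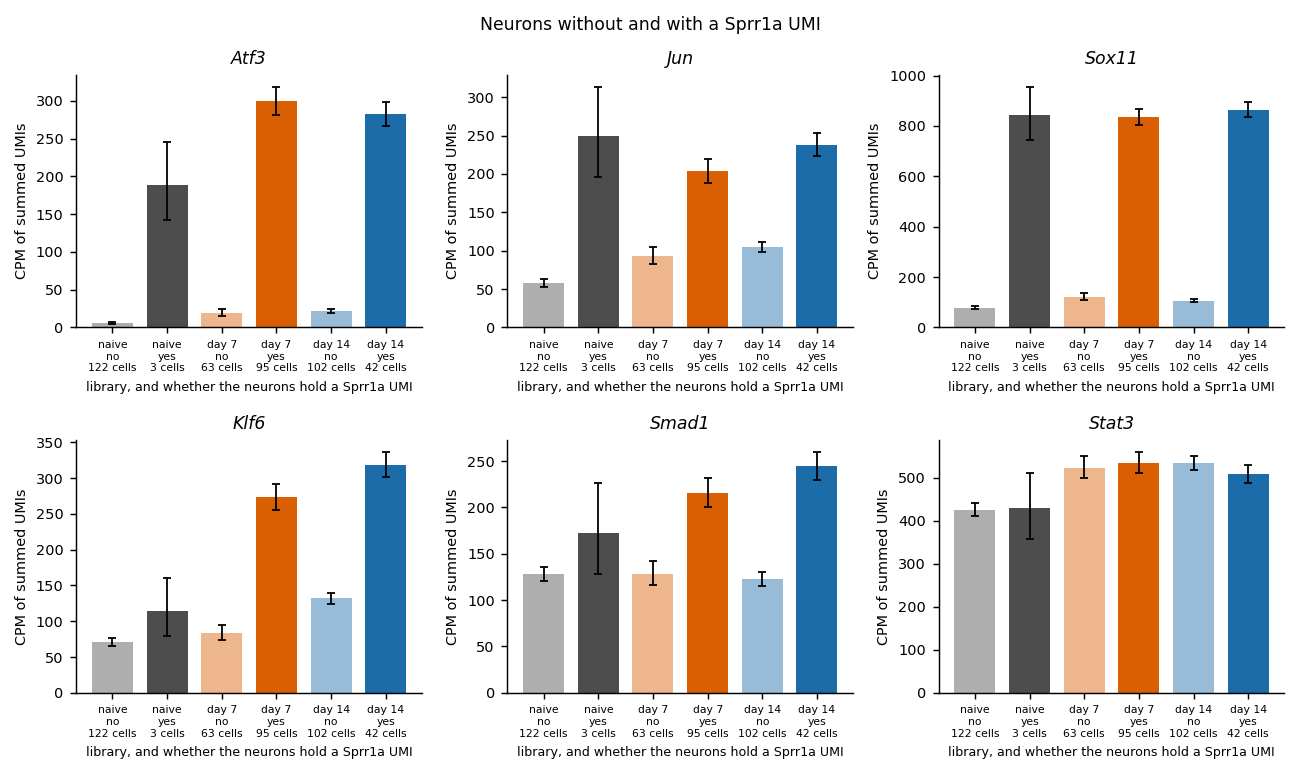
Bars give the level of each member in CPM (vertical axis, from 0) in neurons without and with a Sprr1a UMI in each library, with Poisson 95% intervals (122 and 3, 63 and 95, 102 and 42 cells). Atf3 is at 300 and 282 CPM in the Sprr1a-positive neurons of the injured libraries and at 19.3 and 21.6 CPM in the others, while the Stat3 bars of the injured libraries lie between 509 and 535 CPM.

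The neurons of the injured libraries that lacked Sprr1a were nearer to the naïve neurons. Their ratio over naïve at day 7 and day 14 was 1.58 and 1.76 for Atf3, 1.45 and 1.64 for Jun, 1.17 and 1.02 for Sox11, 1.15 and 1.82 for Klf6, 0.992 and 0.945 for Smad1, and 1.23 and 1.25 for Stat3. None of the 6 members passed 2-fold against all naïve neurons (0 of 6 at each time), where 1.73% and 4.23% of genes were called higher. Stat3 had nearly the same ratio here as over all neurons (1.24 and 1.23). The naïve side of these ratios includes 3 neurons with a Sprr1a UMI. Among neurons without a Sprr1a UMI in each library, Atf3 was at 5.85, 19.3 and 21.6 CPM, on 48, 61 and 184 UMIs. Against those naïve neurons alone, Atf3 was thus more than 2-fold higher at both times, with no interval computed. In the Sprr1a-positive neurons the ratios over naïve at day 7 and day 14 were 24.5 and 23.1 for Atf3, 7.95 and 8.24 for Sox11, 3.77 and 4.39 for Klf6, 3.18 and 3.71 for Jun, 1.66 and 1.88 for Smad1, and 1.26 and 1.19 for Stat3. Here 4 of 6 were called higher at each time, against 4.86% and 7.63% of all genes.

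The naïve library held 3 neurons with a Sprr1a UMI, of which 1 had 58 Sprr1a UMIs and the others 2 and 1. These carried 56 of its 104 neuronal Atf3 UMIs, at 189 CPM against 5.85 CPM in the other 122 neurons, and Sox11 was at 845 against 78.2 CPM. Without these 3 cells, a choice made after seeing the data, the ratio of Atf3 was 28.0 at day 7 and 18.2 at day 14, that of Sox11 6.25 and 4.52, and that of Jun 2.62 and 2.58.

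Glia as a whole (satellite glia, myelinating and non-myelinating Schwann cells, and 70, 60 and 132 cells that fell between these classes) were compared with neurons within each library. Atf3 was higher in neurons 3.01-fold (2.06 to 4.46), 36.5-fold (26.8 to 51.0) and 8.51-fold (7.24 to 10.1). Sox11 was higher 126-fold (63.5 to 292), 158-fold (110 to 236) and 91.9-fold (69.8 to 124), with 8, 29 and 51 UMIs in 2266, 1745 and 2521 glia. Smad1 was higher 3.89-fold, 4.88-fold and 4.60-fold, and Stat3 3.65-fold, 3.74-fold and 3.21-fold. These 4 of 6 members were called higher in neurons in every library, where 25.3%, 24.7% and 26.5% of genes were. In neurons with at least 10000 UMIs the same 4 members were called. The naïve call of Atf3 rested on the 3 naïve neurons with a Sprr1a UMI, and without them its ratio was 1.44 (0.923 to 2.25) and 3 of 6 members were called.

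Jun and Klf6 lay the other way. In glia Jun was at 196, 228 and 207 CPM, and the ratio of neurons over glia was 0.326 (0.296 to 0.359), 0.659 (0.610 to 0.711) and 0.715 (0.674 to 0.758). Klf6 was at 185, 215 and 251 CPM in glia, and its ratio was 0.393, 0.845 and 0.767. So 2 of 6 members were called lower in naïve neurons than in naïve glia (28.0% of genes were), and 0 of 6 in either injured library (27.3% and 26.0%). In the injured libraries the levels of both genes in neurons and glia were within 2-fold of each other.

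Satellite glia wrap the cell bodies of the sensory neurons. None of the members tested there was called higher, 0 of 5 at each time, where 0.933% of genes were called at day 7 and 1.87% at day 14. Jun was at 237, 286 and 198 CPM, with a ratio over naïve of 1.20 (1.11 to 1.31) at day 7 and 0.835 (0.767 to 0.908) at day 14. Both directions turned under a stricter cell filter (1000 genes and 10% mitochondrial reads), to 0.723 (0.505 to 1.01) and 1.64 (1.12 to 2.33), which left 15 and 9 injured cells against 114. Klf6 was at 105, 130 and 151 CPM (1.23 and 1.44) and Stat3 at 140, 165 and 194 CPM (1.18 and 1.39), with intervals above 1 at both times. Atf3 was at 3.04, 3.23 and 4.62 CPM (15, 13 and 24 UMIs) and its interval included 1 at both times, the day 7 ratio being 1.06 (0.465 to 2.39). Smad1 had ratios of 0.989 and 1.15, with intervals that included 1. Sox11 had 3, 4 and 13 UMIs, under the minimum.

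In myelinating Schwann cells 0 of 5 members tested were called higher at day 7 (0.842% of genes) and 1 of 6 at day 14 (1.38%). Stat3 was at 84.9, 115 and 131 CPM, a ratio of 1.36 and 1.55 (1.37 to 1.76), and Jun at 132, 166 and 174 CPM, a ratio of 1.25 and 1.32. Klf6 was at 269, 282 and 322 CPM (1.05 and 1.20), Smad1 at 42.3, 41.5 and 39.3 CPM, and Atf3 at 2.25, 3.78 and 4.16 CPM. The member called at day 14 was Sox11, on 2, 15 and 31 UMIs, with a ratio of 9.19 (2.34 to 79.2). It was under the minimum of 20 UMIs at day 7 and passed it at day 14 through the day 14 library, and it was not called with a cell filter of 1000 genes and 10% mitochondrial reads. Its level there was 0.477%, 0.643% and 1.30% of that in neurons of the same library. Snap25, a synaptic gene of neurons, was at 1.17%, 2.19% and 1.78% of its neuronal level in the same cells, and Sprr1a at 1.08% and 1.36% in the injured libraries with 0 UMIs in the naïve one. Tubb3, a marker of the neuron class, was at 0.818%, 1.18% and 1.21%. The Sox11 percentage was below those of Snap25 and Tubb3 in the naïve and day 7 libraries. At day 14 it was above that of Tubb3 and below those of Snap25 and Sprr1a. Whether free neuronal RNA gave the Sox11 UMIs was not tested.

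Non-myelinating Schwann cells, which bundle thin axons, were few (135, 85 and 157 cells). Atf3 was at 46.3, 45.9 and 193 CPM there, on 13, 10 and 107 UMIs in 9, 8 and 27 cells. Its ratio over naïve was 0.992 (0.389 to 2.45) at day 7 and 4.16 (2.33 to 8.08) at day 14, and day 14 over day 7 was 4.20 (2.20 to 9.01). The day 14 level was 181% of that in neurons, where Sox11 was at 1.53%, Snap25 at 3.60% and Sprr1a at 2.63% of their neuronal levels. The highest cell held 15 of the 107 UMIs. Fibroblast markers in this class summed to 1463, 1514 and 3169 CPM, with 2, 3 and 5 of 5 genes detected (Dcn, Lum and Pdgfra were at 0 in the naïve library), and the class's own markers to 7943, 7530 and 5949 CPM. The dissociation and stress list summed to 1260, 1010 and 846 CPM. Their part in the Atf3 level was not tested.

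Smad1 was called higher in non-myelinating Schwann cells at day 7, on 12 and 21 UMIs (ratio 2.26, 1.06 to 5.03), and its day 14 level was below the naïve one (42.7, 96.4 and 34.2 CPM). That made 1 of 5 tested members at day 7 (1.89% of genes) and 1 of 5 at day 14 (2.71%). Between day 7 and day 14 Atf3 was called higher and Smad1 lower there, where 2.29% and 2.30% of genes were. Jun was at 335, 257 and 427 CPM, Klf6 at 413, 303 and 378 CPM and Stat3 at 185, 239 and 229 CPM. The neuronal markers summed to 67.6, 372 and 306 CPM in this class, and with a stricter separation from neurons, added after seeing the data, Atf3 was at 46.3, 47.4 and 193 CPM there.

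Across the 8 classes with at least 50 cells, Stat3 and Sox11 were highest in neurons in all 3 libraries. Atf3 was highest in non-myelinating Schwann cells and macrophages in the naïve library, which could not be told apart (46.3 and 45.5 CPM), in neurons at day 7, and in non-myelinating Schwann cells at day 14, above neurons. Jun was highest in macrophages in the naïve and day 7 libraries (460 and 375 CPM) and in non-myelinating Schwann cells at day 14. Klf6 had its highest value in non-myelinating Schwann cells in each library, but could be told apart from the next class only at day 14 (378 against 322 CPM in myelinating Schwann cells). In the naïve library the next class was macrophages (312 CPM), and at day 7 myelinating Schwann cells (282 CPM). Smad1 was highest in endothelial cells in each library, at 179, 230 and 164 CPM, and at day 14 the endothelial and neuronal levels could not be told apart.

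Outside neurons and glia, few members were called. In endothelial cells Sox11 had 9, 8 and 36 UMIs (5.07, 4.88 and 13.0 CPM), and the day 14 ratio was 2.57 (1.22 to 6.07), where 2.09% of genes were called higher. That was 3.69% of the neuronal Sox11 level, with Snap25 at 1.25% of its own. In fibroblasts Jun was at 107, 164 and 259 CPM, a day 14 ratio of 2.42 (1.63 to 3.71), where 2.37% of genes were called higher. The dissociation and stress list was also higher in fibroblasts after injury, at 1108, 1291 and 1706 CPM, and its part in the Jun level was not tested. In macrophages Atf3 was lower at day 7, on 8 and 12 UMIs in 65 and 211 cells (45.5 and 11.4 CPM, ratio 0.250, 0.0940 to 0.705), where 2.16% of genes were called lower. The same stress list was at 1199, 677 and 812 CPM in macrophages, and its part was not tested.

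Neurons were also divided by markers into peptidergic, non-peptidergic, C-LTMR (low-threshold C-fibre mechanoreceptors) and large-diameter groups. Atf3 in peptidergic neurons was at 30.7, 330 and 112 CPM (43, 28 and 68 cells), and in non-peptidergic neurons at 3.46, 11.2 and 75.8 CPM (43, 88 and 40 cells). In C-LTMRs it was at 12.4, 178 and 48.9 CPM (32, 11 and 18 cells). Large-diameter neurons numbered 6, 20 and 16, with Atf3 at 588 and 368 CPM after injury and a single UMI in the naïve library. At day 7 an Atf3 UMI was in 9 peptidergic, 23 non-peptidergic, 9 C-LTMR and 10 large-diameter neurons, so these sums rested on few cells. At that time the non-peptidergic group was the lowest, and its interval for counting error (7.81 to 15.4) overlapped with none of the other 3. The same held for Sox11 at day 7, which was at 861 CPM in peptidergic, 122 CPM in non-peptidergic, 513 CPM in C-LTMR and 1631 CPM in large-diameter neurons, against 130, 115, 70.2 and 44.2 CPM in the naïve library. The median depth of the day 7 groups ran from 2911.5 UMIs (large-diameter) and 3212 (non-peptidergic) to 90694 (C-LTMR). In neurons with at least 10000 UMIs alone, a restriction added after seeing the data, day 7 Atf3 was at 331 CPM in peptidergic (20 cells), 5.95 CPM in non-peptidergic (21 cells), 178 CPM in C-LTMR (10 cells) and 607 CPM in large-diameter neurons (6 cells), the same order. The non-peptidergic level then had an interval (3.52 to 9.40) that overlapped with the naïve one (1.90 to 5.83). At day 14 the order differed. Over all neurons, the non-peptidergic Atf3 level (68.1 to 84.1 CPM) was then above that of C-LTMRs (38.7 to 61.0 CPM). Its ratio over naïve was 21.9 (12.9 to 40.5), on 14 naïve UMIs. The day 14 ratio was 3.64 in peptidergic neurons, 3.95 in C-LTMRs and 41.6 (7.41 to 1650) in large-diameter neurons, the last on 1 naïve UMI.

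Adcyap1, one of the peptidergic markers, was itself higher in neurons after SNI (2.82 and 2.14-fold), so the groups were formed again without it, a choice made after seeing the data. The day 7 Atf3 level was then 203 CPM in peptidergic, 10.9 CPM in non-peptidergic and 715 CPM in large-diameter neurons.

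The partners and pathways of the members were counted in neurons over naïve, where 3.58% of all genes were called higher at day 7 and 5.88% at day 14. Of AP-1 and bZIP partners, 2 of 11 tested were called higher at each time, Fosl2 (6.59, 22.4 and 17.9 CPM, ratio 3.40 and 2.72), another AP-1 subunit, and Cebpd (5.76, 13.1 and 12.0 CPM, ratio 2.26 and 2.08), a C/EBP factor. Of the other KLF genes, 1 of 9 was, Klf4 (2.28 and 2.24), on 12 naïve UMIs. The median log2 ratio of the AP-1 and bZIP list was 0.44 and 0.27, and that of the KLF list 0.14 and 0.09.

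Of the gp130, JAK and STAT genes, 1 of 12 was called higher at day 7 and 2 of 13 at day 14. They were Socs3, a feedback inhibitor induced by STAT3 (3.06, 8.29 and 9.08 CPM, ratio 2.71 and 2.97), and at day 14 Il6ra, the interleukin-6 receptor subunit (2.69, on 7 and 28 UMIs). None of the 10 or 11 BMP and SMAD genes tested, none of the 4 SOX genes and none of the 8 DLK and JNK genes were called in either direction at either time. Of that last list, 7 of 8, 6 of 8 and 6 of 8 genes were higher in neurons than in glia, where 25.3%, 24.7% and 26.5% of all genes were.

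Of 13 known neuronal injury targets, 10 were called higher at day 7 and 11 at day 14, against 3.58% and 5.88% of all genes, with median log2 ratios of 1.74 and 2.03. In neurons with at least 10000 UMIs, 10 were called at each time, and the counts of the other lists were as in all neurons. Sprr1a was at 7.17, 620 and 273 CPM (ratio 86.4 and 38.1), Ecel1, an endopeptidase, at 3.88, 54.7 and 44.3 CPM (14.1 and 11.4), the neuropeptide gene Gal at 43.5, 505 and 224 CPM (11.6 and 5.16) and Csf1, a macrophage growth factor, at 6.23, 32.9 and 26.6 CPM (5.27 and 4.27). Sprr1a (0.441) and Gal (0.445) were called lower at day 14 than at day 7, the direction in which Atf3 and Sox11 differed by less than 2-fold.

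Immediate-early and stress genes can be switched on by tissue dissociation, and Atf3 and Jun respond to stress. Of 12 such genes, 11 were tested in neurons (Fos and Fosb are also among the AP-1 partners). Egr1 was called higher (2.65) and Hspa1a lower (0.385) at day 7, and none in either direction at day 14. The list summed to 237, 220 and 220 CPM in neurons and to 1188, 1011 and 933 CPM in glia. The summed list was not higher in the injured libraries in either, and its part in the neuronal levels of Atf3 and Jun was not tested. In the neurons, satellite markers summed to 271, 484 and 425 CPM and myelinating Schwann markers to 246, 388 and 269 CPM, with each of these markers present. Their part in the neuronal levels of Jun and Klf6 was not tested. In neurons with at least 10000 UMIs the satellite markers summed to 265, 449 and 409 CPM. The myelinating Schwann markers summed to 244, 215 and 269 CPM there.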

How the data were processed

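The data are whole-cell 3′ RNA counts (10x Genomics Chromium v3) of 3 libraries, 1 per condition, each a pool of 2 mice. Per the submitters' processing notes the authors used Cell Ranger 3.0.2 and mm10, and the deposited values are raw UMI counts per gene and barcode. Further settings are not given in the sources used here. No sample's columns were left unused.

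Barcodes with 500 or more genes and no more than 20% of UMIs from mitochondrial genes were used (9662 of 11937). Each marker entered as the log of 1 plus counts per 10000 UMIs, divided by its 99th percentile and capped at 1. The score of a class was the mean over its markers, and each cell took the class with the highest score. At least 3 markers of that class had to have a UMI. A margin was applied, so that a cell was called mixed where another class reached 0.75 of the highest score. Cells of mixed classes (94) and of no class (487) were left out. Cells that fell between glial classes (262) entered the glia as a whole and no single class. The margin was not applied between neurons and non-myelinating Schwann cells, which share markers. The marker scores placed no cell in the lymphocyte class, whereas Leiden clustering gave 1 cluster of 85 cells with lymphocyte markers. Doublets were called by Scrublet per library (90 cells, 0.931%, and 0 of 427 neurons) and left out as an alternative.

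UMIs were summed per class and library. Levels carry Poisson intervals, shares exact (Clopper-Pearson) intervals, and ratios exact conditional binomial intervals, all at 95% and for counting error only. Genes were called at 2-fold with an interval clear of 1 and at least 20 UMIs over both sums. On simulated counts, with 100 genes raised and 100 lowered 4-fold, the rule called 100 and 93 of them for neurons at day 7 (12438 genes tested) and 57 of 12243 unchanged genes. The simulated counts were Poisson draws around naïve neuron means, without differences between cells, mice or libraries. They therefore do not give the rate of wrong calls in these data.

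The members were given by name. The lists of related genes and the tests were chosen with earlier results of these data known. Genes named from the lists are those called in neurons at both times, up to 4 per list by the smaller ratio, and direct partners of members. Egr1, Hspa1a and Il6ra were named after their values were seen. Promoters are from RefSeq (6 of 6 members matched) and gene models from GENCODE. Python 3.11.15, NumPy 2.4.6, SciPy 1.17.1, pandas 2.3.3, scanpy 1.11.5, leidenalg 0.10.2 and Matplotlib 3.10.9 were used.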

Additional observations from a re-analysis of the deposited data

Results flagged for a closer look

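Of 84 pairs of a member's ratio in neurons and in another class, 5 had intervals on opposite sides of 1. None of these differences was itself tested, with 1 library per condition. Jun was at a ratio of 0.835 over naïve in satellite glia at day 14 and at 0.552 in macrophages, where neurons had 2.31. The value in satellite glia became 1.64 under a filter of 1000 genes and 10% mitochondrial reads, on 9 day 14 cells. Smad1 was at 0.537 in macrophages at day 7 and at 0.556 at day 14, where neurons had 1.34 and 1.25. Atf3 was at 0.250 in macrophages at day 7, where neurons had 13.4. The naïve macrophages numbered 65, against 211 and 256 in the injured libraries, and held 8 Atf3, 18 Smad1 and 81 Jun UMIs. The dissociation and stress list summed to 1199, 677 and 812 CPM in macrophages, and its part in these values was not tested.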

How the results depend on the processing

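Counts of members called in a comparison were recomputed under 11 other settings, 100 values in all, and 95 stayed within 1.5 times the count reported. With each cell counted equally, 2 members (Atf3 and Sox11) were called higher in neurons at day 7, since Jun came to 1.90 and Klf6 to 1.97. In satellite glia at day 14, 1 member (Sox11) was called without a filter on cells and 1 (Sox11) with Leiden clusters in place of the marker classes. In myelinating Schwann cells, 2 members (Atf3 and Sox11) were called at day 7 without the margin between classes, and 0 at day 14 with a cell filter of 1000 genes and 10% mitochondrial reads. That stricter filter also turned the day 14 ratio of Jun in satellite glia to 1.64 (1.12 to 2.33), on 35 UMIs in 9 cells against 318 in 114, whereas the other alternatives gave ratios below 1, and the day 7 ratio to 0.723 (0.505 to 1.01), on 39 UMIs in 15 cells. Of 207 further values 176 stayed the same and 28 moved, which were shares after thinning and subtype levels without Adcyap1 or in the deeper neurons alone. Over all alternatives the neuronal ratio of Atf3 ran from 8.95 to 28.0 at day 7 and from 5.67 to 18.2 at day 14, and that of Sox11 from 3.96 to 6.25 and from 2.39 to 4.52. Stat3 stayed between 1.18 and 1.29. No paired analysis was possible because there was a single library of each kind. Depth limits Sox11 and Atf3 in satellite glia and myelinating Schwann cells, where each had 31 UMIs or fewer per library.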

Other observations

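Over the 24 sums of a class in a library with at least 50 cells, the genes most like each member were found among 12801 genes by Pearson's r of log2(CPM + 10). The sums share libraries and the classes differ widely in depth, so the values are descriptions. Sox11 was most like Ptpn5 (0.98), Srrm4 (0.97) and Gpr149 (0.97), and Atf3 was most like Vwa5a (0.81), Gap43 (0.80) and Sema4f (0.80). Jun was most like Abca1 (0.89), C4b and Trim7, and Klf6 most like Gtdc1 (0.78), Smg9 and Abcc1. For Smad1 they were Pqlc1 (0.94), Hmbox1 and Sgpp2, and for Stat3 Zdhhc18 (0.91), Nup93 and Ube4b. Between members, r was 0.84 for Sox11 and Stat3, 0.69 for Jun and Klf6, 0.65 for Smad1 and Stat3, 0.65 for Atf3 and Sox11, and -0.13 for Jun and Sox11.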
